A study of Mus musculus with 2 samples.

Results

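The genes described here are 7 that build, bind or cut the hyaluronan and versican matrix of the heart: Has2, Vcan, Hapln1, Cd44, Adamts1, Adamts5 and Adamts9. They were chosen by name for their role in this matrix, with earlier results of these data known, so their counts set beside those of all genes are a description. All 7 were found among the 22401 features of the deposited UMI matrices by Ensembl mouse ID. The data are 10x 3′ single-cell RNA counts (a UMI marks 1 captured transcript) from whole mouse hearts at stage E11.5 (days of embryonic development), with 1 library per genotype. The Control library came from embryos with 1 floxed Hand2 allele and no Cre (Hand2fx/+ R26RmTmG/wt). The H2CKO library came from embryos with floxed Hand2 on both chromosomes and a single copy of Nfatc1-Cre (Nfatc1Cre/wt Hand2fx/fx R26RmTmG/wt). Both carried 1 copy of the mTmG reporter, a membrane protein that turns from Tomato to GFP in cells where Cre has acted. The Nfatc1-driven Cre is active in endocardium, the inner endothelium of the heart, and marks the cells that descend from it. The libraries thus differ in Cre and in the number of floxed alleles together, and how many embryos were pooled is not given in the sources used here. The comparison addresses how transcripts of the cushion matrix differ when Hand2, a transcription factor gene, is deleted in the endocardium.

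Hyaluronan is a long sugar polymer that hyaluronan synthases extrude from the cell surface, and Has2 is the synthase known to be needed for endocardial cushions, the swellings that become the valves and septa. Versican, the product of Vcan, is a large proteoglycan that binds hyaluronan, and link proteins such as Hapln1 hold the pair together. Cd44 is a cell-surface receptor for hyaluronan, while Adamts1, Adamts5 and Adamts9 are secreted metalloproteases that cleave versican as the matrix of the developing heart is remodelled.

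In the mouse genome (GRCm38, GENCODE vM21 annotation) Vcan lies on the minus strand at chr13:89655312-89742509 and Hapln1 on the plus strand at chr13:89539796-89611652. The 2 genes are neighbours, 43659 bases apart with 0 annotated genes between them. Adamts1 (chr16:85793827-85803113) and Adamts5 (chr16:85856173-85901828) are also close, both on the minus strand and 53059 bases apart, with 1 non-coding gene between them. Has2 lies at chr15:56665627-56694539, Cd44 at chr2:102811141-102901665 and Adamts9 at chr6:92772699-92943492, all on the minus strand. Annotated genes overlap Has2 (Has2os), Vcan (Gm4117 and Gm16318), Hapln1 (Gm8546), Cd44 (Gm23731) and Adamts9 (A730049H05Rik, Gm15737 and 9530026P05Rik) on the other strand. A730049H05Rik and Gm15737 were features of their own. The strand setting used in counting is not given in the sources used here, and whether reads from the other strand entered the member counts was not tested.

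Promoters are shown for the neighbours Vcan and Hapln1 and for Adamts1. The clusters where Vcan was past 2-fold lower overlapped with those of Hapln1 and with that of Adamts1, while Hapln1 and Adamts1 shared none. Each window runs from 250 bases before to 50 bases after the start of the gene in RefSeq. That start need not be the GENCODE one, and the RefSeq window of Hapln1 lies inside the GENCODE gene, downstream of its first base. The RefSeq table for GRCm38.p6 held 5 of the 7 promoters, and Has2 and Adamts5 were not matched. Capitals mark the E-box letters CANNTG, searched on both strands, the kind of sequence that HAND2 and other basic helix-loop-helix factors bind. The sequences run 5′ to 3′ on the strand of the gene.
Vcan (chr13:89742463-89742762, minus strand): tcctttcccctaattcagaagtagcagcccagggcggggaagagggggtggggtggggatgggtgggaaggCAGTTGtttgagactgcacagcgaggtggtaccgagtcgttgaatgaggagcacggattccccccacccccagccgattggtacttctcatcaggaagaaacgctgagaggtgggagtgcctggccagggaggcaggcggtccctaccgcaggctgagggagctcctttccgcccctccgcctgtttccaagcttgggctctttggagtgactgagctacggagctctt
Hapln1 (chr13:89540386-89540685, plus strand): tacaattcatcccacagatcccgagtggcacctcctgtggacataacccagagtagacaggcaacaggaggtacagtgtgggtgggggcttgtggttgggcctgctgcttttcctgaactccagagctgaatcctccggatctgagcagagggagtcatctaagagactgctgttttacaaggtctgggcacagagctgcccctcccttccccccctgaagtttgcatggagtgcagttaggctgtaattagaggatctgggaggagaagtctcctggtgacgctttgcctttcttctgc
Adamts1 (chr16:85803064-85803363, minus strand): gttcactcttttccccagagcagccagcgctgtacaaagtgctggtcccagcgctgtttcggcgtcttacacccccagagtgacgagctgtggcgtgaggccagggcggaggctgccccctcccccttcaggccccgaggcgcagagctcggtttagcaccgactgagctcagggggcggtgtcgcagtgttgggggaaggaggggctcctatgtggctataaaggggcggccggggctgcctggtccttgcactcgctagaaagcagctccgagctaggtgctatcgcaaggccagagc
The Vcan window held 1 match, and the Hapln1 and Adamts1 windows held 0. Of all 32851 promoter windows of this length, 72.3% held at least 1 such match. These letters are a description of the windows and say nothing of binding.

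There were 14114 barcodes and 195825720 UMIs for Control, and 13885 barcodes and 201477256 UMIs for H2CKO. After filters on genes, mitochondrial UMIs and doublet scores, 8921 Control and 11534 H2CKO cells were used, with median depths of 16250 and 13432 UMIs. The libraries shared 57 barcode sequences, 29 of them among the cells used. Hand2 itself, in CPM (a gene's UMIs scaled to 1000000 UMIs of the cell group), was 254 in Control and 6.94 in H2CKO in the endothelial-like Klf2 cluster, 170 and 12.9 in the endothelial-like Emcn cluster, and 178 and 14.6 in the mesenchymal-like Col9a3 cluster. It was 183 and 90.6 in the mesenchymal-like Tgfbi cluster, 73.5 and 72.6 in cardiomyocyte-like cells, and 126 and 116 in epicardial-like cells. Which stretch of Hand2 is removed is not given in the sources used here. The GFP transcript was 1647 CPM in the Klf2 cluster of H2CKO against 17.4 in Control, and 1364 against 17.7 in the Col9a3 cluster, but only 56.5 against 11.6 in the Tgfbi cluster. The Tomato transcript was lower in H2CKO also where GFP was not higher, at 16.5 CPM in Control and 4.46 in H2CKO in cardiomyocyte-like cells, where GFP was 9.59 and 9.01 CPM. The Nppa cluster had 18.4 and 4.54 CPM of Tomato and the unnamed Sema3c cluster 15.97 and 5.38 CPM, beside 6.99 and 7.38 and 13.2 and 18.3 CPM of GFP, and the part of this reporter difference in the member values was not tested.

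Cells were clustered without the 7 genes, the wider matrix list, Hand2 or the reporters. The 19 clusters were named from marker genes, with the ending "-like", and 3 stayed unnamed. Each cluster is called by a leading gene. The endothelial-like class had all 12 of its markers detected and joined the Klf2 cluster (256 Control and 263 H2CKO cells) and the Emcn cluster (122 and 484 cells). Most of the class was thus the Klf2 cluster in Control and the Emcn cluster in H2CKO, so each cluster is given on its own. The mesenchymal-like class, with all 12 markers detected in both libraries, joined the Col9a3 cluster (929 and 639 cells) and the Tgfbi cluster (680 and 434 cells). Cardiomyocyte-like cells numbered 2525 and 3654, and epicardial-like cells 682 and 211. There were 73 and 106 white blood cell-like cells, beside 2735 and 4988 of the erythroid-like class.

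With 1 library per genotype there is no replicate check, no test and no p-value. Intervals in parentheses are exact 95% intervals (Poisson for CPM, conditional for ratios of counts, Clopper-Pearson for shares) and cover counting error only. A gene is called past 2-fold when the log2 ratio of CPM plus 5, H2CKO over Control, is at least 1 in size, and only where the higher library had at least 20 CPM and 20 UMIs. Genes below that minimum are given as values. Erythroid-like cells, the lowest class for all 7 transcripts in both libraries, are given as a guide to free RNA. Transcripts of their own are not told apart from free RNA there, and the level of free RNA can differ in cell groups of other depths. Because a 3′ assay is not scaled per length, levels are compared between cells for 1 gene, not between genes.

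The 7 genes divided the control heart among them by cell type. Has2 and Vcan were highest in mesenchymal-like cells, Hapln1, Adamts1 and Adamts5 in endothelial-like cells, Adamts9 in cardiomyocyte-like cells and Cd44 in white blood cell-like cells. For 5 of the 7 genes the highest class was the same in H2CKO, the exceptions being Hapln1 and Adamts9. Hapln1 was highest in mesenchymal-like cells there, with endothelial-like cells second, but the endothelial-like Klf2 cluster was the highest cluster in both libraries. With the clusters of each class weighted alike, Hapln1 in H2CKO was 685 CPM in endothelial-like and 687 CPM in mesenchymal-like cells. The Control order of Adamts1 was within counting error, at 122 CPM (114 to 131) in endothelial-like and 111 CPM (107 to 116) in mesenchymal-like cells. Adamts9 was 20.7 CPM (17.9 to 23.8) in endothelial-like and 19.2 CPM (18.2 to 20.2) in cardiomyocyte-like cells of H2CKO, so that order is within counting error.

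**Figure D1:**
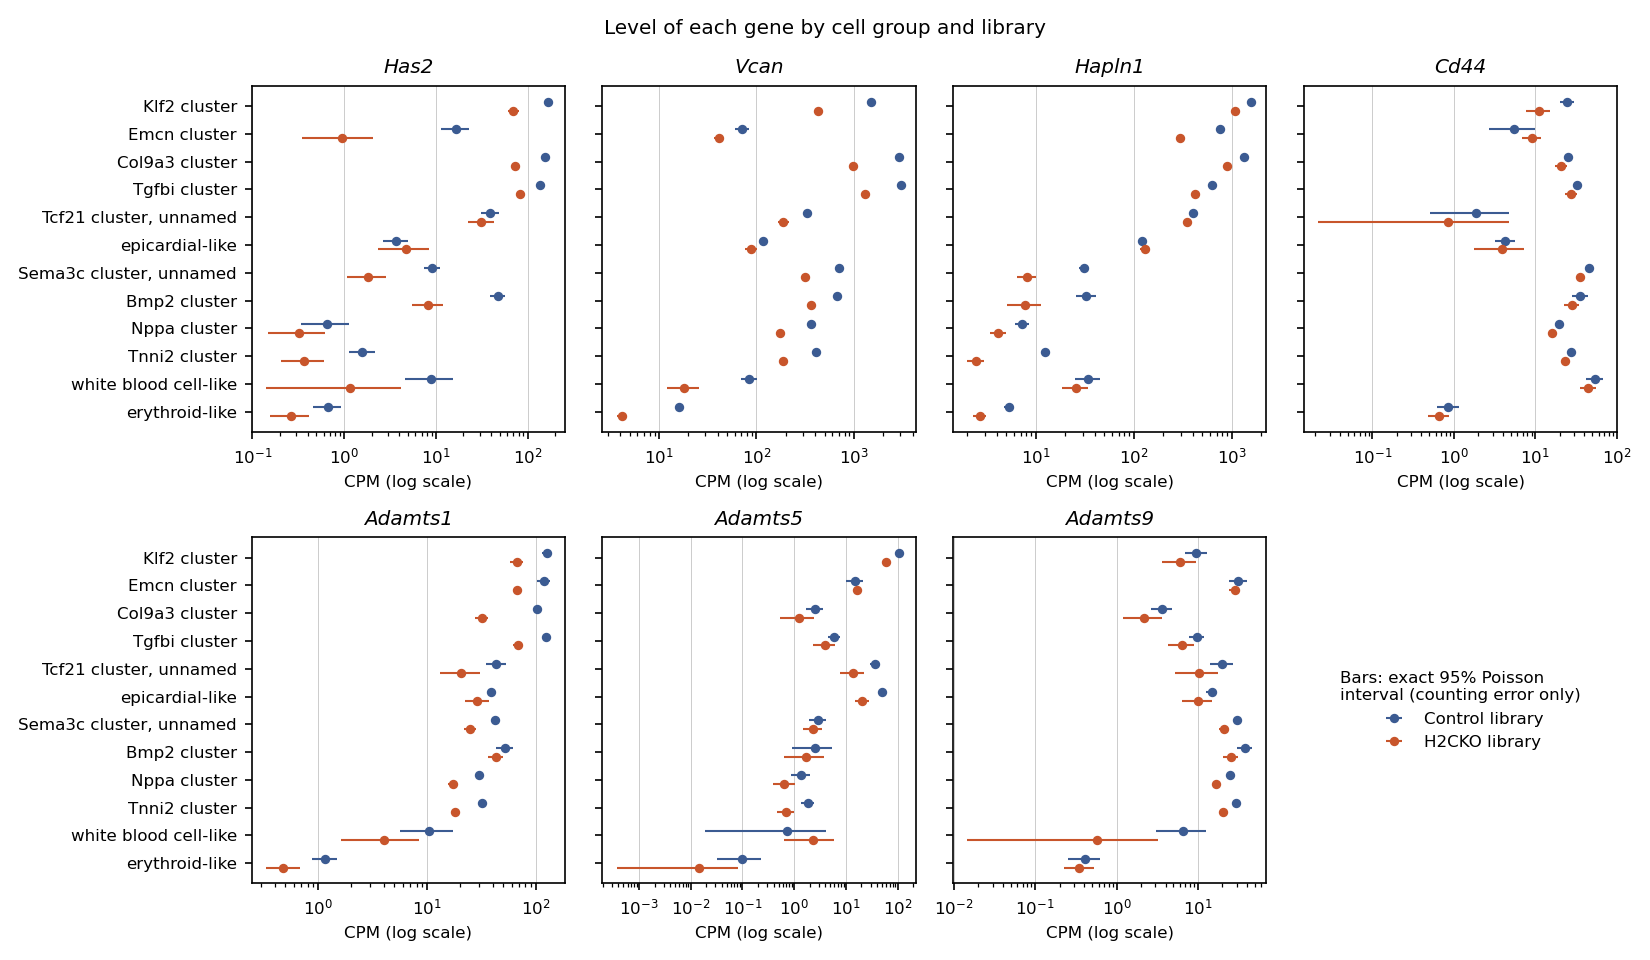
CPM of each gene (log axis) in 12 cell groups of the Control library (blue) and the H2CKO library (orange), with exact 95% Poisson intervals that cover counting error only. Vcan in the Col9a3 cluster was 2872 CPM in Control and 984 in H2CKO, and erythroid-like cells held the lowest or nearly the lowest level of each gene.

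In H2CKO some of the 7 genes were past 2-fold lower in mesenchymal-like and endothelial-like cells, and none was past 2-fold higher in the 4 largest classes of heart cells (endothelial-like, mesenchymal-like, epicardial-like and cardiomyocyte-like) or in the 4 clusters of the first 2. Of all genes tested, 0.812%, 0.429%, 0.541% and 0.218% were past 2-fold higher in these classes, in that order, and 0.653% in the Klf2, 1.4% in the Emcn, 0.478% in the Col9a3 and 0.464% in the Tgfbi cluster. Vcan was past 2-fold lower in both mesenchymal-like clusters and in the endothelial-like Klf2 cluster, Has2 in the Klf2 and Col9a3 clusters, Adamts1 in the Col9a3 cluster and Hapln1 in the Emcn cluster. Among the 5 genes tested in mesenchymal-like cells, 2 were past 2-fold lower (Vcan and Adamts1), against 3.52% of all 6527 genes tested. Among the 6 tested in the endothelial-like class, 4 were past 2-fold lower (Has2, Vcan, Hapln1 and Adamts5), against 7.57% of all 6527 genes. With its 2 clusters weighted alike in both libraries, 2 of those 6 were past 2-fold (Has2 at -1.30 and Vcan at -1.78), against 5.05% of all genes in either direction, while Hapln1 was -0.78 and Adamts5 -0.69.

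In the Klf2 cluster 2 of 6 genes tested were past 2-fold lower (Has2 and Vcan; 3.25% of all genes), and in the Emcn cluster 1 of 4 (Hapln1; 8.33%). In the Col9a3 cluster 3 of 5 were past 2-fold lower (Has2, Vcan and Adamts1; 5.5% of all genes), and in the Tgfbi cluster 1 of 5 (Vcan; 3.2%). Epicardial-like cells had 1 of 4 (Adamts5; 4.99%), white blood cell-like cells 1 of 3 (Vcan; 8.26%) and cardiomyocyte-like cells 0 of 4 (0.491%).

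Both the whole transcriptome and the members leaned to lower values in H2CKO. The median log2 ratio over all genes tested was -0.24 in mesenchymal-like cells, -0.28 in endothelial-like cells, -0.21 in epicardial-like cells and -0.16 in cardiomyocyte-like cells. The medians over the members tested were -0.89, -1.22, -0.38 and -0.45. Centred on the median gene, 1 member was past 2-fold in mesenchymal-like cells (Vcan; 1.7% of all genes in either direction), 2 in endothelial-like cells (Has2 and Vcan; 4.29%) and 0 in epicardial-like cells (2.37%).

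**Figure D2:**
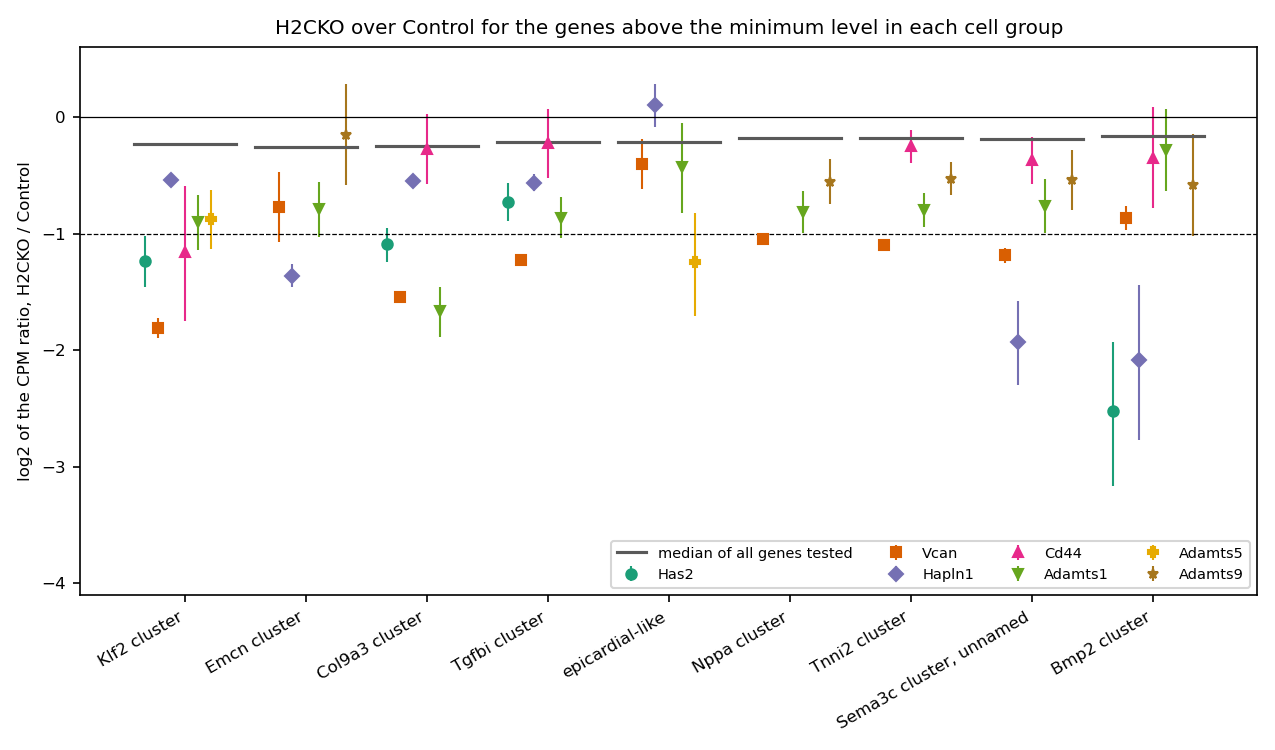
Log2 of the CPM ratio, H2CKO over Control, without the added 5 CPM, for each gene above the minimum level in 9 cell groups, with exact 95% conditional intervals (counting error only); the grey bars are the median of all genes tested on the scale with 5 CPM added, and the dashed line marks 2-fold. Vcan lay below the grey bar in all 9 groups, by least in epicardial-like cells.

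Longer genes had lower ratios. Across the genes tested, Spearman's rho between the log2 ratio and the length of the gene on the genome was -0.56 in mesenchymal-like, -0.49 in endothelial-like, -0.56 in epicardial-like and -0.47 in cardiomyocyte-like cells, as a description across genes of 1 pair of libraries. The members span 9287 bases (Adamts1) to 170794 bases (Adamts9), so the trend lowers the ratio of Adamts9 more than that of Adamts1. With the trend taken out, Vcan was -1.36 in the Klf2 cluster, -1.03 in the Col9a3 cluster and -0.75 in the Tgfbi cluster, which ended the Tgfbi call. Adamts1 in the Col9a3 cluster was -1.44 and Has2 in the Klf2 cluster -0.92. Hapln1 came close to the trend in the Klf2 cluster (-0.14) and in mesenchymal-like cells (-0.09), but not in the Emcn cluster (-0.88, no longer past 2-fold). The part of library preparation or counting in this trend was not tested.

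**Figure D3:**
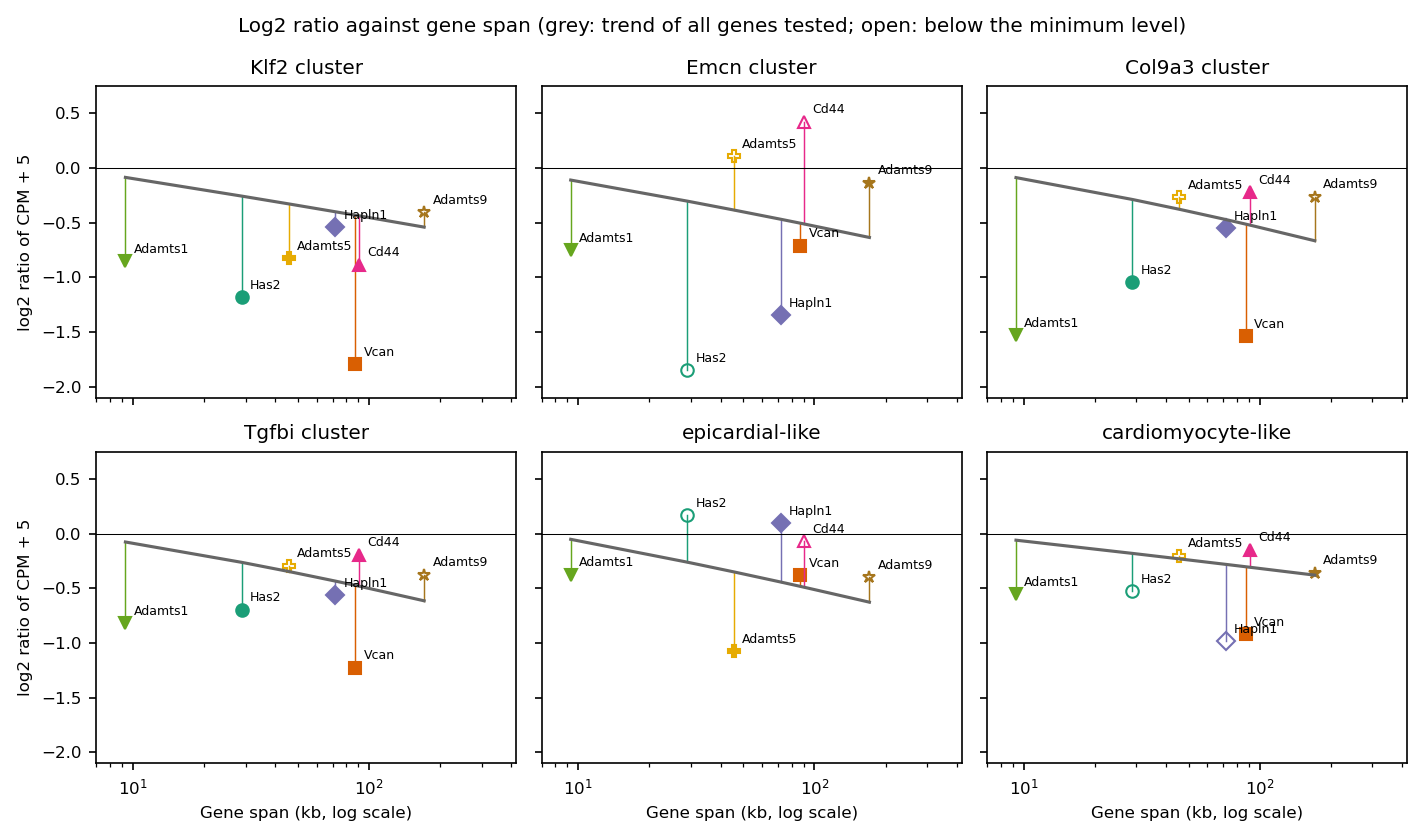
Log2 ratio of CPM plus 5, H2CKO over Control, of each gene against its length on the genome (kb, log axis) in 6 cell groups; the grey line is the trend over all genes tested there and open symbols are genes below the minimum level. Adamts1 lay under the line in all 6 groups, and Vcan in 5, the exception being epicardial-like cells (0.10 above the line).

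Has2, the hyaluronan synthase, was highest in the mesenchymal-like cells and in the Klf2 cluster. In Control it was 157 CPM (150 to 164) in the Col9a3 cluster, 136 (129 to 143) in the Tgfbi cluster and 166 (154 to 178) in the Klf2 cluster. These 3 clusters were close to each other, and the intervals of the Klf2 and Col9a3 clusters overlapped. In H2CKO the values were 73.5 (67.1 to 80.4), 82.0 (74.2 to 90.4) and 70.3 (61.4 to 80.2) CPM, all 3 below every Control value. The log2 ratio was -1.04 in the Col9a3 cluster, 2.13-fold lower (1.93 to 2.36), and -1.18 in the Klf2 cluster, 2.36-fold lower (2.03 to 2.75). Centred on the median gene these became -0.79 and -0.95, which ended both calls, and with the span trend taken out -0.76 and -0.92. In the Tgfbi cluster the ratio was -0.69 and did not pass 2-fold.

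The share of mesenchymal-like and Klf2 cells with a Has2 UMI was also lower in H2CKO than in Control. Among mesenchymal-like cells thinned to 5000 UMIs each (1562 of 1609 in Control and 1020 of 1073 in H2CKO were deep enough), 48.7% (46.2 to 51.2) had a Has2 UMI in Control and 29.2% (26.4 to 32.1) in H2CKO. Without thinning the shares were 75.5% and 49.8%. Erythroid-like cells, with median depths of 18332 and 13230.5 UMIs, had 0.341% and 0.146% after thinning, far below the mesenchymal-like shares in both libraries. In the Klf2 cluster, with 241 of 256 and 233 of 263 cells deep enough, the thinned shares were 47.3% and 29.6% (68.8% and 46.4% without thinning).

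The other clusters of Control had lower levels of Has2. In the unnamed Tcf21 cluster it was 39.0 CPM (31.1 to 48.4) in Control and 31.5 (22.2 to 43.4) in H2CKO, with overlapping intervals and a log2 ratio of -0.27. The Emcn cluster held 33 Has2 UMIs in Control (16.4 CPM) and 6 in H2CKO (0.954 CPM), below the minimum for a call. The Bmp2 cluster, a cardiomyocyte-like cluster led by Gal, Bmp2 and Tbx3 (Bmp2 and Tbx3 mark the myocardium of the atrioventricular canal), had 47.6 CPM in Control and 8.28 in H2CKO. That was past 2-fold (log2 ratio -1.99, 5.76-fold lower, 3.8 to 8.98), and 2 of 6 members tested there were (Has2 and Hapln1), against 2.13% of all genes. In the same cluster the 12 mesenchymal markers summed to 408 CPM in Control and 161 in H2CKO, 6 of them past 2-fold lower, and the 12 endothelial markers to 92 and 43.4 CPM. Their part in the Has2 value was not tested. Cardiomyocyte-like cells as a whole had 3.30 and 0.766 CPM, and epicardial-like cells 3.67 and 4.74 CPM.

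Vcan, the versican core protein gene, was lower in both mesenchymal-like clusters, in the Klf2 cluster and in muscle. In Control it was 2872 CPM (2843 to 2902) in the Col9a3 cluster, 3029 (2996 to 3063) in the Tgfbi cluster, 1497 (1460 to 1534) in the Klf2 cluster and 70.8 (59.6 to 83.4) in the Emcn cluster. In H2CKO it was 984 (959 to 1008), 1293 (1261 to 1325), 427 (405 to 451) and 41.3 (36.5 to 46.7) CPM. No interval overlapped between the libraries in these 4 clusters, and the order of the clusters was the same.

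The drop in Vcan was 3.5-fold (3.30 to 3.72) in the Klf2 cluster, 2.92-fold (2.84 to 3.00) in the Col9a3 cluster and 2.34-fold (2.28 to 2.41) in the Tgfbi cluster. The intervals of these 3 ratios did not overlap each other, although with 1 library each the difference between clusters was not tested. In the Emcn cluster the ratio was 1.71-fold lower (1.39 to 2.11) and not past 2-fold. Pooled over the endothelial-like class the levels were 1043 and 171 CPM (-2.58), a larger difference than in either cluster alone. With the clusters weighted alike they were 813 and 233 CPM (-1.78).

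Vcan was also found in muscle. Cardiomyocyte-like cells had 366 CPM (361 to 371) in Control and 191 (188 to 194) in H2CKO, 1.92-fold lower (1.88 to 1.96) with a log2 ratio of -0.92, just short of 2-fold. The largest cardiomyocyte-like clusters passed it narrowly. The Nppa cluster went from 362 to 175 CPM (-1.03; 0.803% of all genes past 2-fold lower) and the Tnni2 cluster from 405 to 189 CPM (-1.08; 0.814%). Centred on the median gene these became -0.85 and -0.90, and with the span trend taken out -0.68 and -0.74, which ended both calls. Shallow cells led by Myl1, with a median of 1959 UMIs in Control and 1962 in H2CKO, had 112 and 123 CPM. They made up 819 of the Control but 219 of the H2CKO cardiomyocyte-like cells. Without them and without the Stard10 cluster, which had 103 cells in Control and 3 in H2CKO, Vcan in cardiomyocyte-like cells was -1.04. In the whole class the 7 smooth muscle and pericyte markers summed to 1314 CPM in Control and 686 in H2CKO, 0 past 2-fold. The 9 erythroid markers summed to 16083 and 23770 CPM, and the 10 white blood cell markers to 8.85 and 49.3 CPM, 1 past 2-fold higher. The part of these lists in the Vcan values was not tested.

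Among the smaller groups, the unnamed Sema3c cluster, led by Rspo3, Masp1 and Sema3c, had 711 CPM of Vcan in Control and 312 in H2CKO (-1.18). In that cluster 2 of 5 members tested were past 2-fold lower (Vcan and Hapln1), against 1.91% of all genes. Centring (-0.98) or taking out the span trend (-0.76) ended the Vcan call there. White blood cell-like cells had 83.4 CPM (113 UMIs) and 18.0 CPM (31 UMIs), with a log2 ratio of -1.94. In that class the 6 megakaryocyte markers summed to 2342 CPM in Control and 606 in H2CKO, 4 of them past 2-fold lower, and the 12 cardiomyocyte markers to 3330 and 1204 CPM, 7 past 2-fold lower. The 12 mesenchymal markers went from 118 to 44.0 CPM, 3 past 2-fold lower, and the part of these lists in the Vcan value was not tested. Epicardial-like cells had 116 and 87.5 CPM (-0.38, or 0.10 with the span trend taken out). Erythroid-like cells had 16 CPM in Control and 4.14 in H2CKO, 3.86-fold lower (3.37 to 4.43).

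The lower Vcan was spread over the cells of each cluster. In cells thinned to 5000 UMIs the median cell of the Col9a3 cluster held 13 Vcan UMIs in Control (6 to 23 from the 10th to the 90th percentile) and 4 in H2CKO (1 to 9). In the Tgfbi cluster the median was 14 (6 to 25) and 6 (2 to 13), and in the Klf2 cluster 6 (2 to 15) and 1 (0 to 5). Nearly every Col9a3 cell still held a Vcan UMI after thinning, 100% in Control and 95.9% in H2CKO, so the difference lay in UMIs per cell. In the Klf2 cluster the share also differed, at 97.5% and 76.4%, beside 7.76% and 2.22% of erythroid-like cells. Without thinning the Klf2 shares were 99.2% and 87.5% and the erythroid-like shares 23.7% and 5.27%.

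**Figure D4:**
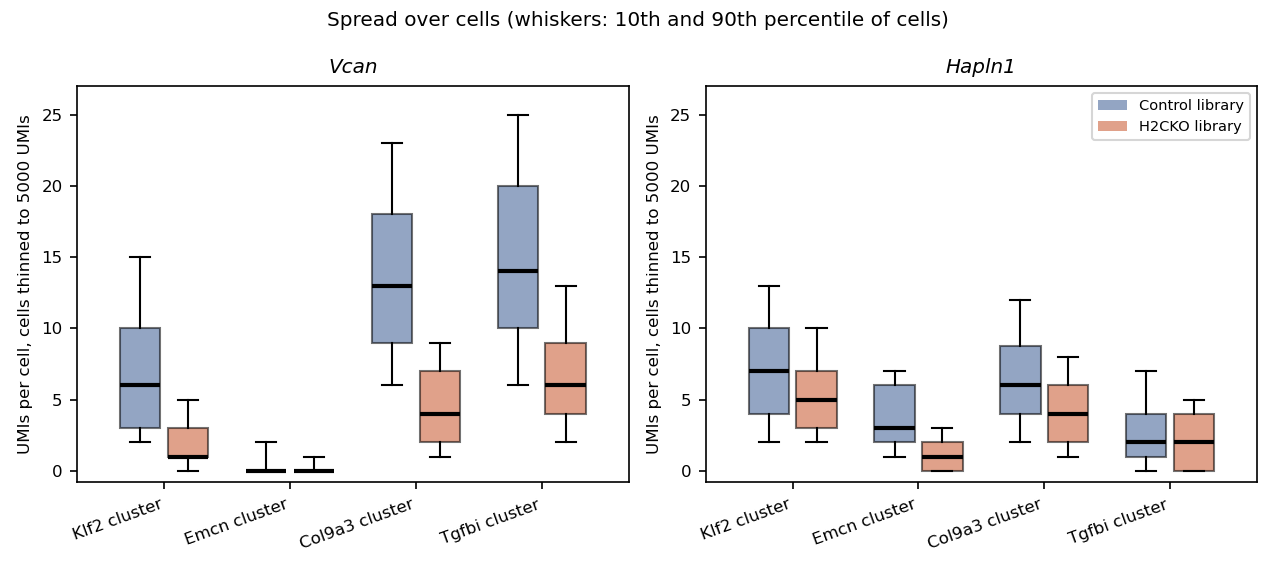
UMIs of Vcan (left) and Hapln1 (right) per cell after thinning each cell to 5000 UMIs, in 4 clusters of the Control (blue) and H2CKO (orange) libraries; boxes span the 25th to 75th percentile of cells, the line is the median and whiskers reach the 10th and 90th percentile. The median Vcan count went from 13 to 4 in the Col9a3 cluster and from 6 to 1 in the Klf2 cluster, while the median Hapln1 count went from 6 to 4 and from 7 to 5.

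Hapln1, the link protein gene next to Vcan, followed another pattern. It was high in all 4 mesenchymal-like and endothelial-like clusters of Control, at 1570 CPM (1533 to 1608) in the Klf2 cluster, 1316 (1296 to 1336) in the Col9a3 cluster, 763 (726 to 803) in the Emcn cluster and 621 (605 to 636) in the Tgfbi cluster. In H2CKO the levels were 1079 (1043 to 1116), 897 (874 to 920), 297 (283 to 310) and 420 (402 to 438) CPM. The Emcn cluster moved from above the Tgfbi cluster to below it. Only there was Hapln1 past 2-fold lower among these 4 clusters, at 2.57-fold (2.40 to 2.76) and a log2 ratio of -1.35. The Klf2, Col9a3 and Tgfbi clusters had log2 ratios of -0.54, -0.55 and -0.56.

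The thinned share of Emcn cells with a Hapln1 UMI was 94.0% in Control and 68.6% in H2CKO, and 98.3% and 97.0% in the Klf2 cluster. Erythroid-like cells had 2.88% and 1.21%. Without thinning the Emcn shares were 96.7% and 85.5%, and 116 of 122 and 456 of 484 Emcn cells were deep enough to thin. In the Emcn cluster the 4 endocardial markers (Npr3, Nfatc1, Adgrg6 and Tmem100) summed to 926 CPM in Control and 222 in H2CKO, 3 of them past 2-fold lower, and the 4 vascular markers (Cldn5, Fabp4, Aplnr and Rgcc) to 48.3 and 187 CPM, 2 past 2-fold higher. The 12 mesenchymal markers summed to 810 and 202 CPM there, 5 of them past 2-fold lower. These sums differed along with Hapln1, and their part in its value was not tested.

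Elsewhere Hapln1 was 400 and 348 CPM in the unnamed Tcf21 cluster (-0.20, or 0.02 when centred on the median gene), 122 and 131 CPM in epicardial-like cells (0.09), and 11.47 and 3.33 CPM in cardiomyocyte-like cells. The Bmp2 cluster (32.7 and 7.71 CPM, -1.57) and the Sema3c cluster (31.0 and 8.12 CPM, -1.46) were past 2-fold lower. In the Sema3c cluster the mesenchymal markers summed to 658 CPM in Control and 430 in H2CKO, 4 of 12 past 2-fold lower, and their part was not tested.

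The number of Hapln1 UMIs per Vcan UMI therefore differed between the libraries. In the Klf2 cluster there were 1.05 Hapln1 UMIs per Vcan UMI (1.01 to 1.09) in Control and 2.52 (2.37 to 2.69) in H2CKO. The Col9a3 cluster had 0.458 (0.450 to 0.466) and 0.912 (0.880 to 0.945), and the Tgfbi cluster 0.205 (0.199 to 0.210) and 0.325 (0.309 to 0.341). The Emcn cluster went the other way, from 10.8 (9.08 to 12.9) to 7.18 (6.30 to 8.20). Groups outside these 4 clusters differed in direction. The number was also lower in H2CKO in the Tnni2 (0.0308 and 0.0130), Sema3c (0.0436 and 0.0260) and Bmp2 clusters (0.0491 and 0.0211). It was higher in groups such as epicardial-like cells (1.06 and 1.49) and the Tcf21 cluster (1.21 and 1.84). These are ratios of UMIs of 2 transcripts, not of molecules of protein.

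Cd44, the hyaluronan receptor, was past 2-fold in none of the groups where it was above the minimum. It was highest in white blood cell-like cells, at 53.9 CPM (42.2 to 67.7) in Control and 44.6 (35.2 to 55.7) in H2CKO. Mesenchymal-like cells had 28.3 (26.2 to 30.6) and 23.8 (21.0 to 26.8) CPM, and cardiomyocyte-like cells 23.4 (22.1 to 24.7) and 20.7 (19.6 to 21.7) CPM. The log2 ratios were -0.25, -0.21 and -0.15. Centred on the median gene the mesenchymal-like ratio became 0.03 and the cardiomyocyte-like one 0.01, and with the span trend taken out the 3 were 0.29, 0.29 and 0.16, so the sign of Cd44 in these classes depended on the scaling.

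The Klf2 cluster had 24.6 CPM of Cd44 in Control (106 UMIs) and 11.04 in H2CKO (35 UMIs), or 2.23-fold lower (1.51 to 3.37). With the added 5 CPM the log2 ratio was -0.88, so it was not past 2-fold by the rule. The Emcn cluster had 5.48 and 9.06 CPM, the unnamed Sema3c cluster 45.3 and 35.03 CPM, and the Bmp2 cluster 35.6 and 28.0 CPM. Epicardial-like cells, at 4.30 and 3.88 CPM, were the lowest class after the erythroid-like cells, which had 0.857 and 0.656 CPM.

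Adamts1, a versican-cleaving protease, was at similar levels in the endothelial- and mesenchymal-like clusters of Control. Levels were 125 CPM (115 to 136) in the Klf2 cluster, 124 (117 to 131) in the Tgfbi cluster, 117 (103 to 133) in the Emcn cluster and 101 (95.9 to 107) in the Col9a3 cluster. The intervals of neighbours in this order overlapped, but that of the Col9a3 cluster lay below those of the Klf2 and Tgfbi clusters. In H2CKO the Klf2, Emcn and Tgfbi clusters stayed together at 66.9 (58.2 to 76.5), 67.6 (61.3 to 74.3) and 68.1 (61.0 to 75.8) CPM. The Col9a3 cluster lay below them at 31.9 CPM (27.7 to 36.6).

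The Col9a3 cluster was past 2-fold lower for Adamts1, at 3.18-fold (2.74 to 3.70) with a log2 value of -1.53. The Klf2, Emcn and Tgfbi clusters had -0.85, -0.75 and -0.82 and were not past 2-fold. Thinned shares of cells with an Adamts1 UMI were 34.5% and 16.3% in the Col9a3 cluster and 40.8% and 25.6% in the Tgfbi cluster, beside 0.757% and 0.166% of erythroid-like cells. Without thinning they were 56.9% and 24.6% in the Col9a3 cluster and 68.7% and 45.2% in the Tgfbi cluster. Cardiomyocyte-like cells had 30.2 and 19 CPM (-0.55) and epicardial-like cells 38.9 and 28.9 CPM (-0.37).

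Adamts5, a related protease, was found mainly in 3 groups of cells. In Control it was 108 CPM (98.2 to 118) in the Klf2 cluster, 49.1 (45.1 to 53.4) in epicardial-like cells and 37.2 (29.4 to 46.3) in the unnamed Tcf21 cluster. The Emcn cluster had 14.95 CPM (10.1 to 21.3) and mesenchymal-like cells 4.0 (3.22 to 4.91), and erythroid-like cells held 5 UMIs in all. In H2CKO the Klf2 cluster had 58.7 CPM (50.5 to 67.7), a log2 ratio of -0.82, and the Emcn cluster 16.5 (13.5 to 20.03), a ratio of 0.11. Neither endothelial-like cluster was past 2-fold, although the pooled class was (78.3 and 30.7 CPM, -1.22).

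Epicardial-like cells of H2CKO had 20.7 CPM of Adamts5 (15.3 to 27.4, from 48 UMIs against 549 in Control). That was 2.37-fold lower (1.77 to 3.26) with a log2 ratio of -1.07, past 2-fold. The Tcf21 cluster was also past 2-fold lower, from 37.2 to 13.6 CPM (-1.18, from 79 and 16 UMIs), where 7.21% of all genes were. The erythroid markers summed to 11300 CPM in epicardial-like cells of Control and 46413 in H2CKO, and the 10 epicardial markers to 3220 and 2652 CPM. The 4 endocardial markers summed to 93.5 and 37.9 CPM there, 1 past 2-fold lower, and the 6 megakaryocyte markers to 6.53 and 139 CPM. Their part in the Adamts5 value was not tested. Both calls are narrow ones. Centring on the median gene ended them (-0.86 in epicardial-like cells and -0.96 in the Tcf21 cluster), as did taking out the span trend (-0.73 and -0.82).

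Adamts9, the third protease, was highest in muscle in Control by class, although 1 endothelial-like cluster ranked among the muscle clusters. Cardiomyocyte-like cells had 25.9 CPM (24.6 to 27.3) in Control and 19.2 (18.2 to 20.2) in H2CKO, a log2 ratio of -0.36 that became 0.02 with the span trend taken out. The Bmp2 cluster had 37.7 and 25.1 CPM (-0.50), the Sema3c cluster 30.6 and 21.0 CPM (-0.45), and the Emcn cluster 31.4 and 28.1 CPM (-0.14, or 0.12 when centred). The endothelial-like Emcn cluster thus came second in Control, after the Bmp2 cluster, and the intervals of these 2 clusters overlapped (30.4 to 46.3 and 24.1 to 40.2). With the trend taken out the Sema3c ratio was 0.09. None was past 2-fold. The endothelial-like class as a whole was 16.5 CPM in Control and 20.7 in H2CKO (0.26, or 0.91 with the span trend taken out), while the Klf2 cluster had 9.52 and 5.99 CPM. With the clusters weighted alike the class ratio was -0.18. Mesenchymal-like cells had 6.30 and 3.96 CPM and epicardial-like cells 14.7 and 9.92 CPM, both below the minimum. Their log2 ratios of -0.34 and -0.40 turned to 0.30 and 0.23 with the span trend taken out.

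The share of each gene's UMIs by cell class shows where the transcripts of the whole heart sat. Mesenchymal-like cells were 18.0% of Control and 9.30% of H2CKO cells and held 64.7% of all Vcan UMIs in Control and 39.5% in H2CKO. Cardiomyocyte-like cells held 18.5% and 43.5% of them. For Has2 the mesenchymal-like share was 73.5% and 70.2%, and for Adamts1 42.7% and 18.3%. Of the Adamts5 UMIs, epicardial-like cells held 41.1% in Control and 10.4% in H2CKO, and endothelial-like cells 36.9% and 62.8%. These shares move with the number of cells of each class in a library as well as with the level per cell.

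The GFP transcript allowed H2CKO cells to be divided by the reporter. A GFP UMI was found in 88.6% (84.1 to 92.2) of Klf2 cells, 60.7% of Emcn cells, 54.9% of Col9a3 cells and 12.7% (9.69 to 16.2) of Tgfbi cells of H2CKO. The matching Control shares, from embryos without Cre, were 23.4%, 19.7%, 18.9% and 15.3% (12.7 to 18.2). In the Tgfbi cluster the share did not differ beyond its interval although the GFP level was 56.5 against 11.6 CPM, so no order is read from that share. Erythroid-like cells had 0.987% in Control and 5.25% in H2CKO. Cells with no GFP UMI include cells in which the transcript was missed.

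Vcan, Has2, Hapln1 and Adamts1 were closer in H2CKO cells of the Col9a3 cluster with and without a GFP UMI than either was to Control. Vcan was 959 CPM in the 351 cells with GFP and 1015 in the 288 without, a ratio of 0.945 (0.899 to 0.993), against 2872 in Control. Has2 was 70.6 and 77.2 CPM, Hapln1 934 and 850 CPM, and Adamts1 31.6 and 32.3 CPM. Hand2 was 8.03 and 22.8 CPM in the same cells, against 178 in Control. The median depths of these cells were 9246 and 9185 UMIs. In the other clusters that were split the cells with GFP were deeper, with medians of 11262.5 against 9807.5 UMIs in the Emcn, 11521 against 9970 in the Tgfbi, 17231 against 14139.5 in the Nppa, 29147.5 against 22194 in the Tnni2 and 19217 against 12482 in the Sema3c cluster.

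In the Tgfbi cluster, where Hand2 was 88.9 CPM in the 55 cells with GFP and 90.8 in the 379 without, Vcan was 1346 and 1284 CPM, against 3029 in Control. The Tgfbi cells of H2CKO without a GFP UMI therefore had a Vcan level below Control as well, with Hand2 at 183 CPM in Control. In the Emcn cluster Vcan was 50.6 CPM in the 294 cells with GFP and 23.6 in the 190 without, a ratio of 2.14 (1.57 to 2.97), and Hapln1 was 314 and 264 CPM. In the cardiomyocyte-like Nppa cluster Vcan was 173 and 175 CPM in cells with and without GFP. The Sema3c cluster had 327 and 307 CPM, against 711 in Control. In the Nppa, Tnni2 and Sema3c clusters the share of cells with a GFP UMI was lower in H2CKO than in Control. The shares were 11.003% in H2CKO and 14.9% in Control for Nppa, 19.4% and 29.5% for Tnni2, and 16.1% and 25.6% for Sema3c. Control had no Cre, so the split of these clusters is not read as a split by Cre. The Klf2 cluster, in which 233 of 263 cells held a GFP UMI, was not split. In the 6 clusters that were (Emcn, Col9a3, Tgfbi, Nppa, Tnni2 and Sema3c), Vcan was below Control in both sets of H2CKO cells, and the nearest was the Emcn set with GFP, at 50.6 against 70.8 CPM.

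**Figure D5:**
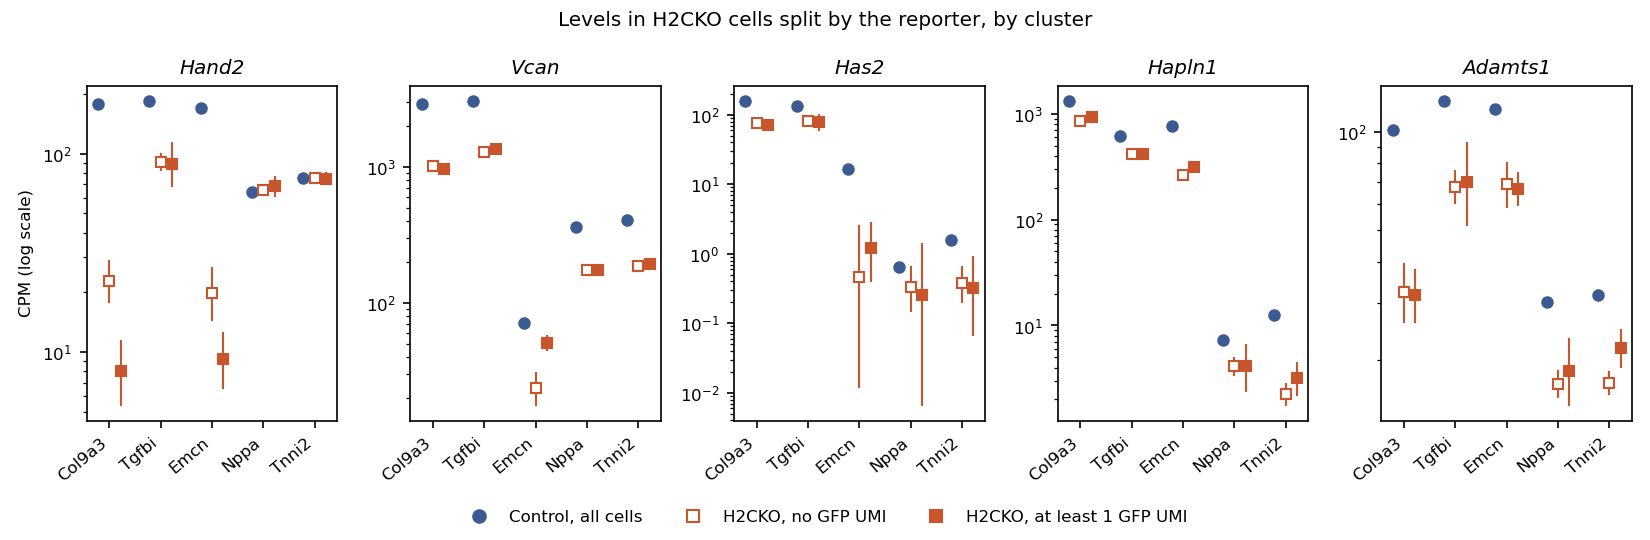
CPM (log axes) of Hand2, Vcan, Has2, Hapln1 and Adamts1 in 5 clusters, for all Control cells (blue circles), H2CKO cells without a GFP UMI (open squares) and H2CKO cells with at least 1 GFP UMI (filled squares), with exact 95% Poisson intervals on the H2CKO points. In the Col9a3 cluster Vcan was 959 CPM with GFP and 1015 without, both under the Control level of 2872.

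Markers and other cell-type signals moved with these results. In the Col9a3 cluster the 12 mesenchymal markers summed to 4882 CPM in Control and 2098 in H2CKO, all 12 lower and 8 past 2-fold. In the Tgfbi cluster the sums were 5023 and 3576 CPM with 0 past 2-fold, and in the Klf2 cluster 1476 and 644 CPM with 7 past 2-fold lower. The 4 endocardial markers of the Klf2 cluster summed to 421 CPM in Control and 218 in H2CKO, 2 of them past 2-fold lower, and the 4 vascular markers to 10.7 and 24.3 CPM. The 12 endothelial markers summed to 4236 CPM in Control and 3608 in H2CKO in the Klf2 cluster and to 4061 and 4326 CPM in the Emcn cluster, with none at 0. The 9 erythroid markers, which include haemoglobin genes, summed to 11668 and 51702 CPM in mesenchymal-like cells and to 14498 and 46856 CPM in the Klf2 cluster. Median depths of the Col9a3 cluster were 11802 and 9231 UMIs, and of the Klf2 cluster 12428 and 9010 UMIs. The part of these differences in the member values was not tested, except that leaving haemoglobin and mitochondrial genes out of the totals did not change the number of members past 2-fold in the 4 main classes.

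The other genes of the matrix pathway were taken from a list of 55 that covers hyaluronan turnover and binding, other lecticans, versican partners, other proteases and their inhibitors, and chondroitin sulfate synthesis, and all 55 were among the features. In the Klf2 cluster 4 of the 24 tested were past 2-fold lower and 0 higher, with a median of -0.52 beside -0.23 for all genes, 3.25% of which were past 2-fold lower. These were the versican-binding glycoproteins Fbln2 (352 and 106 CPM) and Tnc (38.6 and 3.47 CPM), the protease Adamts8 (104 and 48.9 CPM) and the chondroitin-building enzyme Chsy1 (82.4 and 23.0 CPM). In mesenchymal-like cells 4 of 24 were past 2-fold lower and 0 higher, with a median of -0.43 beside -0.24, and 3.52% of all genes were past 2-fold lower. They were Fbln2 (456 and 224 CPM), Tnc (73.8 and 27.7 CPM), Chsy1 (93.3 and 43.7 CPM) and Papss2 (210 and 92.6 CPM), which makes the sulfate donor for chondroitin sulfate. Within that class, the Col9a3 cluster had 5 of 24 lower (the same 4 genes and Cemip2, at 55.3 and 23.8 CPM), against 5.5% of all genes. The Tgfbi cluster had 1 of 23 (Tnc), near its 3.2% of all genes. Over the pooled endothelial-like class 6 of 21 were lower and 0 higher (Ugdh, Fbln2, Fbn2, Tnc, Adamts8 and Chsy1), against 7.57% of all genes lower, with the 2 clusters in different proportions in the libraries.

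In the Emcn cluster 4 of 18 were past 2-fold lower and 2 higher, against 8.33% and 1.4% of all genes. Lower were Ugdh (39.4 and 15.4 CPM), which makes a hyaluronan precursor, Fbn2 (139 and 56.6 CPM), the fibronectin gene Fn1 (2184 and 819 CPM) and Chsy1 (29.9 and 9.22 CPM). Higher were the hyaluronidase Hyal2 (43.4 and 98.1 CPM) and the inhibitor Timp3 (51.8 and 158 CPM). Cardiomyocyte-like cells had 0 of 13 past 2-fold, with a median of -0.20, where 0.491% of all genes were lower and 0.218% higher. Epicardial-like cells had 1 of 20 lower (Cemip, at 35.3 and 11.6 CPM), near the 4.99% of all genes. Cemip, and 2 genes that were not lower in mesenchymal-like cells, Fbln1 (139 and 144 CPM) and Hyal2 (40.3 and 66.3 CPM), are named after their values were seen. Has1 and Has3, the other hyaluronan synthases, were near 0 and were not tested.

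Most of these counts depended on the scaling. Centred on the median gene, 1 of 24 was past 2-fold lower in mesenchymal-like cells (Tnc; 0.858% of all genes), 2 in the Col9a3 cluster (Tnc and Papss2; 1.56%) and 0 in the Tgfbi cluster (0.619%). With the span trend taken out these became 0 (0.506%), 2 (the same genes; 1.09%) and 0 (0.387%). The Klf2 cluster had 3 lower under both scalings (Fbln2, Tnc and Chsy1; 1.29% and 1.06%), and 1 higher when centred (Hyal2; 1.22%). In the Emcn cluster 2 were lower and 3 higher when centred (Fn1 and Chsy1, against Hyal2, Timp3 and B3gat3; 3.65% and 2.81%), and 0 and 2 with the trend taken out (2.65% and 2.84%). The pooled endothelial-like class had 5 lower and 1 higher (Timp3) under both, against 2.42% and 1.87% of all genes when centred and 1.98% and 1.64% with the trend taken out. The epicardial-like call of Cemip ended with the trend taken out. These 2 scalings of the wider list were added after its values were seen.

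Over 37 profiles (a cluster in a library), the genes whose log2 level was most like that of each member were found among 9015 candidates by Pearson's r. Vcan was most like Tbx20 (0.96), Chsy1 (0.95) and Pmepa1 (0.94). Has2 was most like Nfatc4 (0.91), Hapln1 like P3h3 (0.97), Adamts1 like Amotl1 (0.98), Adamts5 like Ppp1r13b (0.91), Adamts9 like Nhsl1 (0.91) and Cd44 like Adipor2 (0.86). Between members, the highest values were 0.86 for Vcan and Adamts1 and 0.85 for Has2 and Hapln1, while the neighbours Vcan and Hapln1 had 0.65. The lowest was 0.05, for Cd44 and Adamts5. Profiles of 1 library share its depth and free RNA, so these values describe likeness in these data only.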

How the data were processed

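Whole hearts were kept on ice for up to 3 hours and dissociated with TrypLE for 5 minutes, and 1 10x 3′ library was made per genotype, per the labels' protocols. Cell Ranger 5.0.1, Seurat 4 and GRCm38.p6 are named in the submitters' processing notes. The authors deposited UMI counts per gene and barcode, without normalization, and embedding coordinates (a score with no fixed unit) for some cells, used only to mark a subset. Whether both libraries were counted with the same settings is not given in the sources used here. Of the 22401 features, 22285 were matched to symbols.

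Barcodes were kept from 500 detected genes upwards and up to a mitochondrial share of 10%. Doublets were scored with Scrublet at an expected rate of 6%. Its automatic threshold removed 920 Control cells (9.35%), and where it marked under 0.5% (0 H2CKO cells) the top 5% of scores, 607 cells, were removed. Clustering used 2000 variable genes without the 7 genes, the wider list, haemoglobin, mitochondrial and sex-linked genes, Hand2 and the reporters, 30 principal components, 15 neighbours from each library and Leiden resolution 1. Names came from 12 marker lists and 5 lists within classes, needing a median log2 fold of at least 0.25, at least 3 markers in 10% of cells, and no majority of another list among the top 10 genes. The members and lists were chosen with earlier results of these data known. The genes named are all 7 members, genes of the wider list past 2-fold in endothelial-like or mesenchymal-like cells, and the 3 genes most like each member, of which the first is printed for most members. UMIs were summed per group, scaled to CPM and compared as described with the results. Genes with at least 20 CPM and 20 UMIs were tested, and 5 CPM were added for ratios. The comparison was tested on simulated data. Alternatives covered filters, doublets, naming, resolution, depth, scaling, pseudocount, minimum level, gene span and free RNA. Software was scanpy 1.11.5, leidenalg 0.10.2, scikit-learn 1.9.0, scipy 1.17.1, numpy 2.4.6 and matplotlib 3.10.9 under Python 3.11.15.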

Additional observations from a re-analysis of the deposited data

How the results depend on the processing

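No paired analysis was possible because there is 1 library per genotype and the result comes from no test, so differences between embryos, dissections and library preparations cannot be told apart from genotype. Of 546 recomputed log2 ratios, 351 stayed within the counting interval of the reported comparison. That interval is of the ratio of counts, while the log2 ratios have 5 CPM added, which shrinks them for genes at low levels. For Has2 and Adamts5 in cardiomyocyte-like cells 0 of 19 alternatives were within it, so the 351 is no measure of stability for such genes. Of the 546 ratios, 27 changed sign. Of those 27, 1 was of a value past 2-fold as reported, Adamts5 in endothelial-like cells at 0.11 in the Emcn cluster alone. The others were of values not past 2-fold, among them Cd44 in cardiomyocyte-like cells (same sign in 15 of 19 alternatives) and in epicardial-like cells (13 of 17), Hapln1 in epicardial-like cells (14 of 17) and Adamts9 in endothelial-like cells (18 of 21). The counts below are of members past 2-fold, each with the share of all genes past 2-fold in either direction. In cardiomyocyte-like cells, with 0 as reported, it was 1 with doublet-scored cells kept (0.81%), with a minimum of 1500 genes and a mitochondrial share up to 5% (4.39%) and with Leiden resolution 2 (0.775%), and 2 with all deposited barcodes named by their own markers (0.892%). The 4 in endothelial-like cells became 2 when centred on the median gene (4.29%) and 2 with the span trend taken out (3.62%). The 1 in epicardial-like cells became 0 when centred (2.37%), with the span trend taken out (1.78%) and with a minimum of 100 CPM (5.8%). The 2 in mesenchymal-like cells became 1 when centred (1.7%), with the span trend taken out (1.2%), with all deposited barcodes named by their own markers (1.71%) and with each cell named by its own markers (2.46%). Alternatives chosen after seeing the data gave 1 in the Emcn cluster alone (9.73%), 2 in the Klf2 cluster alone (3.9%) and 2 with clusters weighted alike in endothelial-like cells (5.05%), 1 in the Tgfbi cluster alone (3.66%), and in cardiomyocyte-like cells 1 with clusters weighted alike (0.886%) and 1 without the shallow Myl1 and Stard10 clusters (0.933%). Apart from the choices that changed the cells or clusters used, the cause was not tested. Vcan in mesenchymal-like cells was past 2-fold lower in 20 of 21 alternatives, between -1.54 and -0.90, and Adamts1 in 17 of 21, between -1.53 and -0.82. Vcan and Has2 in endothelial-like cells were past 2-fold lower in 20 of 21 each, Vcan between -2.77 and -0.71 and Has2 between -2.24 and -1.18. Most of these alternatives kept the pooled class, with its 2 clusters in different proportions in the libraries, so they are not independent of each other. Within the Klf2 cluster, centring or taking out the span trend ended the Has2 call. The number of genes with the same highest class in both libraries stayed within 1.5 times of 5. Few H2CKO UMIs lay behind the values of Has2 in the Emcn cluster (33 in Control and 6 in H2CKO) and Adamts5 in epicardial-like cells (549 and 48).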
